A study of Mus musculus with 10 samples.

Results

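The regulators described here are 8 transcription factor genes that set and maintain the skeletal muscle programme: the 4 myogenic regulatory factors Myf5, Myod1, Myog and Myf6, the satellite cell factor Pax7, and the MEF2 genes Mef2a, Mef2c and Mef2d. They were taken by symbol from the 22180 genes measured on the array, with the probe set of the highest mean kept where a gene had more than 1. All 8 were found, and Mef2c was the one with a choice, of 2 probe sets. Gastrocnemius muscle, from the calf, was compared between 5 control and 5 carnitine mice, 1 array per mouse. All were male NMRI mice, an outbred stock, 3 weeks old when the study began, and fed a natural-ingredient diet with a carnitine content below 5 mg/kg, with 1000 mg/kg of L-carnitine added in the carnitine group. The animals of the study were killed at 9, 15 or 18 months of age, and the age of each array mouse is not known here, so age may differ between and within the groups. L-carnitine is the carrier that long-chain fatty acids need to enter mitochondria. The study asked what a lifelong supply of it does to the muscle transcriptome of old mice.

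Pax7 marks satellite cells, the stem cells that lie along each muscle fibre. When these are activated, Myf5 and Myod1 commit them to the muscle lineage, Myog drives the myoblasts to differentiate and fuse, and Myf6 (MRF4) is kept on in mature fibres. The myogenic factors are basic helix-loop-helix proteins that bind the E-box as dimers with E proteins. The MEF2 proteins are MADS-box factors that bind an AT-rich site and act with them, and in adult fibres MEF2 also answers to calcium signals from nerve activity. In adult muscle Myod1 is known to be favoured in fast and Myog in slow fibres, and Myog is known to increase after denervation.

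The promoters of Myog, Myf5 and Mef2a are shown because myogenic factors and MEF2 proteins are known to bind each other's genes through E-boxes and MEF2 sites. Each runs from 250 bases before to 50 bases after the annotated transcription start of RefSeq (GRCm38.p6), 5′ to 3′ on the strand of the gene. Capitals mark matches on either strand to the E-box, CANNTG, or to an open form of the MEF2 site, spelled CTA, any 4 bases, then TA.
Myog promoter, chr1:134289754-134290053, plus strand: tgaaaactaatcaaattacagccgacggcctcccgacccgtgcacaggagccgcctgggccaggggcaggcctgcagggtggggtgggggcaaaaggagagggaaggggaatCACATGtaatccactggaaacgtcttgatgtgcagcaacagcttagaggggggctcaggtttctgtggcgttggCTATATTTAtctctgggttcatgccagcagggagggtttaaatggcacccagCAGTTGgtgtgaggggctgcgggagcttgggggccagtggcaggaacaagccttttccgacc
Myf5 promoter, chr10:107486085-107486384, minus strand: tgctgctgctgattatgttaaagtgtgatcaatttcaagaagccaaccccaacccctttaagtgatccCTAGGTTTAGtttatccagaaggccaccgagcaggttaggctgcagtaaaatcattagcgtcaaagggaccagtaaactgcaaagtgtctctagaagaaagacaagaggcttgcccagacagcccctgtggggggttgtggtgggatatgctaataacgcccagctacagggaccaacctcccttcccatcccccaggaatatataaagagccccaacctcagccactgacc
Mef2a promoter, chr7:67372809-67373108, minus strand: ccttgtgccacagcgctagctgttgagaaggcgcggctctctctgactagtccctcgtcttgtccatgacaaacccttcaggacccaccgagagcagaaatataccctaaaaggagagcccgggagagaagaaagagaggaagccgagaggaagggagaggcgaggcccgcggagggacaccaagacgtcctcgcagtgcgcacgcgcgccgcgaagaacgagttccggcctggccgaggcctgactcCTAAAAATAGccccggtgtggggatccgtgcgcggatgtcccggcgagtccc
The Myog promoter held 2 E-boxes, CACATG at position -138 and CAGTTG at position -12 from the start, and 1 MEF2-like match, CTATATTTA, at position -64. These matches do not overlap. The Myf5 promoter held no E-box and 2 overlapping MEF2-like matches, 1 on each strand, CTAGGTTTA and TAGGTTTAG from position -182. In CTAGGTTTA the 4 open bases are GGTT, which are not all A or T. The Mef2a promoter likewise held no E-box and 2 overlapping matches, CTAAAAATA and TAAAAATAG, that begin 2 bases before the start. Of 32851 mouse promoters of the same length, 72.3% held an E-box, 21.0% a MEF2-like match and 15.7% both, so a match is common by its letters alone. The Pax7 and Mef2d promoters had neither motif. The 3 Mef2c promoters held 2, 0 and 1 E-boxes and 0, 0 and 1 MEF2-like matches. Myf6 and Myod1 were not matched. No binding was measured in this study, and these matches describe sequence only.

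No difference between the diets in the 8 regulators passed the threshold of an adjusted p below 0.05 (limma, Benjamini-Hochberg over 22180 genes). Over the whole array the number that passed was 0 (0%), while 1546 (6.97%) had an unadjusted p below 0.05. Of the 8 regulators, 1 had an unadjusted p below 0.05, Myf5. In 0 of the 8 did the groups fail to overlap, against 1.11% of all genes. Of the regulators 4 had a positive, 3 a negative and 1 no difference, against 47.5% positive and 52% negative over all genes. Among genes above the median level, where all 8 lay, 67.5% were positive. The count changed with the scaling. It was 7 positive and 1 negative with arrays centred on their median. After cyclic loess, a scaling that depends on intensity, it was 2 positive and 6 negative. All levels are log2 values after RMA, a method that corrects, normalizes and summarises probe signals, and all differences are carnitine minus control on that scale. Fold values come from these differences, which RMA compresses for dim genes. Bulk values cannot tell fewer cells of a type from less RNA per cell.

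**Figure D1:**
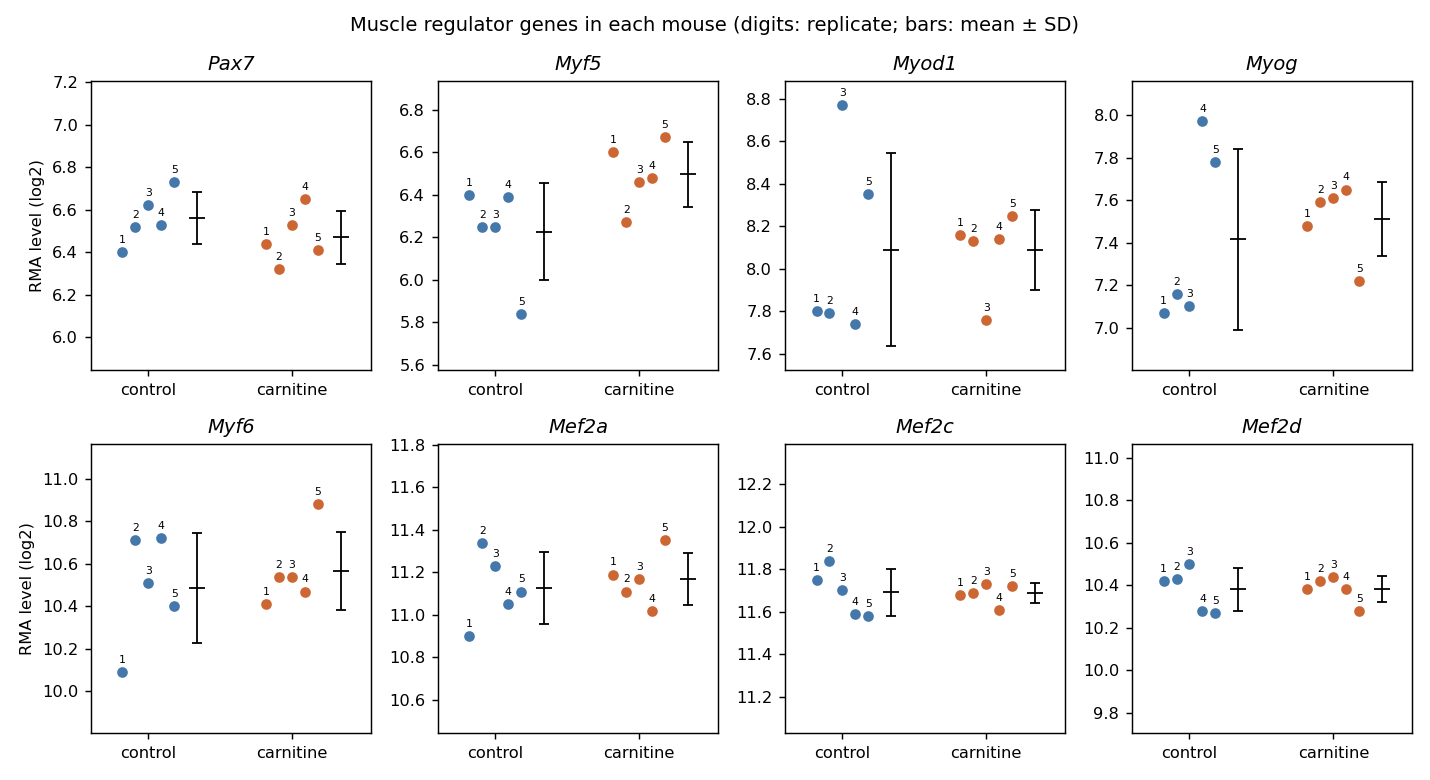
Level of each regulator gene in each mouse (RMA level, log2; every panel spans the same number of log2 units), control in blue and carnitine in orange, with digits for the replicate and bars for mean ± SD of 5 mice. The groups overlap in all 8 genes, and the control mice spread more widely for Myod1 and Myog, with an SD of 0.45 and 0.43 against 0.19 and 0.17 in the carnitine mice.

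Tissue identity and array quality were checked over the whole series. The muscle genes Acta1 and Ckm, skeletal actin and muscle creatine kinase, averaged 13.82 and 13.31, and the fast myosin gene Myh4 averaged 13.64, against a median of 6.14 (log2) over all genes. Control replicate 5 stood apart from the other arrays, with an interquartile range of 2.20 against 2.39 to 2.59. As a background level, 1390 olfactory and vomeronasal receptor genes, which have no known use in muscle, had a median level of 3.56 and a 95th percentile of 5.78. All 8 regulators lay above that percentile on average, though 1.51% of the receptor genes were as bright as Pax7 and 2.09% as bright as Myf5.

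Among the stem cell factors, Pax7 showed no difference beyond the spread between mice. Pax7 was at 6.40, 6.52, 6.62, 6.53 and 6.73 in control replicates 1 to 5 and at 6.44, 6.32, 6.53, 6.65 and 6.41 in carnitine replicates 1 to 5. The highest mouse was a control and the lowest a carnitine mouse, and the ranges overlapped over most of their length. Pax7 averaged 6.56 ± 0.12 in the control mice and 6.47 ± 0.13 in the carnitine mice (SD, n = 5), a difference of -0.09 (SE 0.094, limma adjusted p 0.80). The 95% confidence interval ran from -0.29 to 0.11, so that a carnitine level between 0.817 and 1.08 times the control level is within it.

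Myf5, which marks committed and many quiescent satellite cells, was the regulator with the largest difference. Its levels in control replicates 1 to 5 were 6.40, 6.25, 6.25, 6.39 and 5.84, and in carnitine replicates 1 to 5 they were 6.60, 6.27, 6.46, 6.48 and 6.67. Of the carnitine mice, 4 lay above every control, and replicate 2 lay within the control range. The low control was replicate 5, the array that stood apart. The group means were 6.23 ± 0.23 and 6.50 ± 0.15 (SD, n = 5), a difference of 0.27 (SE 0.12), or 1.21-fold, with a limma unadjusted p of 0.0373 and an adjusted p of 0.71. The 95% confidence interval of the ratio was 1.01 to 1.44. Exact permutation of the mice between the diets, two-sided, gave p = 0.0397, and its smallest possible p with 5 against 5 mice is 0.00794. By unadjusted p, 5.16% of all genes ranked at or before Myf5. Without control replicate 5 the difference was 0.17 (limma unadjusted p 0.0847, 4 controls). The difference was positive in all 10 omissions of an array, from 0.17 to 0.33, and 3 of these had an unadjusted p below 0.05, those without control replicates 1 and 4 and carnitine replicate 2.

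Myod1, which commits myoblasts and is known to be favoured in fast fibres, had nearly equal group means and a wide spread among the controls. Control replicates 1, 2 and 4 were at 7.80, 7.79 and 7.74, while replicates 3 and 5 were at 8.77 and 8.35. Carnitine replicates 1, 2, 4 and 5 were at 8.16, 8.13, 8.14 and 8.25, between these control clusters, and replicate 3 was at 7.76. The means were 8.09 ± 0.45 for the controls and 8.09 ± 0.19 for the carnitine mice (SD, n = 5). The difference was -0.002 (SE 0.18, limma adjusted p 0.997), with a 95% confidence interval from -0.39 to 0.38, the widest of the 8, which covers ratios from 0.766 to 1.30. Without control replicate 3 the difference became 0.17 (limma unadjusted p 0.247), and without control replicate 4 it became -0.09. The mean difference thus changes with the controls counted.

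Myog, the driver of myoblast differentiation, also divided the controls. Control replicates 1, 2 and 3 were at 7.07, 7.16 and 7.10 and replicates 4 and 5 at 7.97 and 7.78. Carnitine replicates 1 to 4 were at 7.48, 7.59, 7.61 and 7.65, in the gap between these controls, and carnitine replicate 5 was at 7.22. The lowest and the highest mice were both controls. The group means were 7.42 ± 0.43 and 7.51 ± 0.17 (SD, n = 5), with a difference of 0.09 (SE 0.17, limma adjusted p 0.89) and a 95% confidence interval from -0.27 to 0.46. Omitting control replicate 4 gave 0.23, and omitting control replicate 1 gave 0.01. High Myod1 and high Myog did not fall in the same controls, apart from replicate 5, which was high in both.

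Myf6, the myogenic factor kept on in mature fibres, lay far above the receptor background in every mouse. Control replicates 1 to 5 were at 10.09, 10.71, 10.51, 10.72 and 10.40, and carnitine replicates 1 to 5 at 10.41, 10.54, 10.54, 10.47 and 10.88. The lowest level was in control replicate 1 and the highest in carnitine replicate 5, and the other 4 carnitine mice all lay inside the control range. The means were 10.49 ± 0.26 and 10.57 ± 0.18 (SD, n = 5), a difference of 0.08 (SE 0.12, limma adjusted p 0.86). The sign turned without control replicate 1 (-0.02) and after cyclic loess, an intensity-dependent scaling between arrays (-0.02). Myf6 lies next to Myf5 on the same chromosome with 0 protein-coding genes between them, and the pair is tested below.

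Of the MEF2 genes, Mef2c and Mef2d varied least between mice among the 8 regulators. Mef2a was at 10.90, 11.34, 11.23, 11.05 and 11.11 in control replicates 1 to 5 and at 11.19, 11.11, 11.17, 11.02 and 11.35 in carnitine replicates 1 to 5. The ranges nearly coincided apart from the low control replicate 1. Mef2a averaged 11.13 ± 0.17 and 11.17 ± 0.12 (SD, n = 5), a difference of 0.04 (SE 0.094, limma adjusted p 0.91), and the sign turned after cyclic loess (-0.05) and after quantile normalization (-0.03). Mef2d was at 10.42, 10.43, 10.50, 10.28 and 10.27 in control replicates 1 to 5 and at 10.38, 10.42, 10.44, 10.38 and 10.28 in carnitine replicates 1 to 5. Its low values were in control replicates 4 and 5 and carnitine replicate 5. Both groups averaged 10.38, with an SD of 0.10 in control and 0.062 in carnitine muscle, and a difference of 0 (SE 0.076, limma adjusted p 1), which was -0.10 after cyclic loess and 0.05 after median centring. The 95% confidence interval from -0.16 to 0.16 covers ratios from 0.894 to 1.12.

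Mef2c, the MEF2 gene most tied to muscle and vessel development, was at 11.75, 11.84, 11.70, 11.59 and 11.58 in control replicates 1 to 5 and at 11.68, 11.69, 11.73, 11.61 and 11.72 in carnitine replicates 1 to 5. All 5 carnitine mice lay inside the control range. The means were 11.69 ± 0.11 and 11.69 ± 0.047 (SD, n = 5), a difference of -0.01 (SE 0.073, limma adjusted p 0.99), with a confidence interval from -0.16 to 0.15. The 2 probe sets of Mef2c did not give the same picture. On the dimmer one, control replicates 1, 2 and 3 were at 7.75, 7.80 and 7.75 and the carnitine mice at 7.72 to 7.83, but control replicates 4 and 5 were at 7.05 and 7.27. Its means were 7.52 ± 0.34 and 7.78 ± 0.045 (SD, n = 5), a difference of 0.26 (SE 0.14, limma unadjusted p 0.0835 and adjusted p 0.71 over all probe sets). Control replicates 4 and 5 also had the lowest Mef2c levels of the brighter probe set and the highest Myog levels of the 10 mice. Which transcripts each probe set reads is not given in the sources used here. Mef2b, the remaining MEF2 gene, shares its probe sets with Borcs8 and is not reported.

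**Figure D2:**
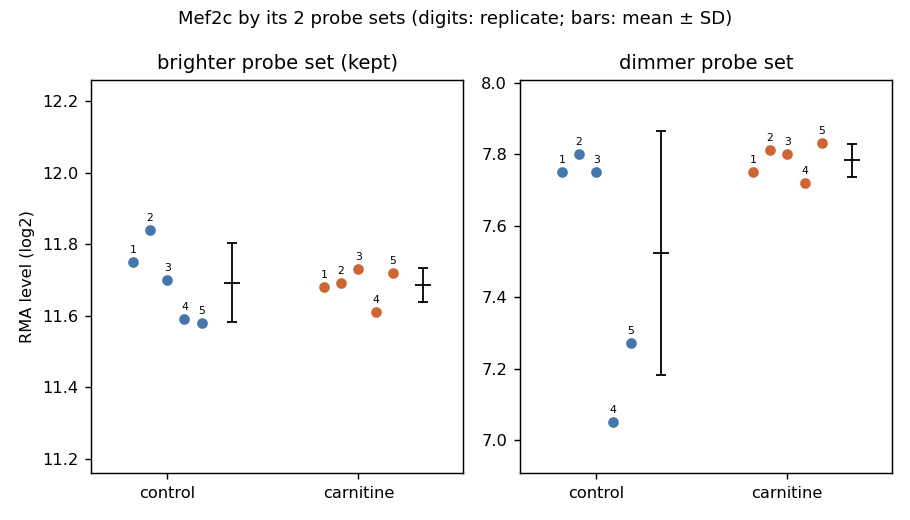
Mef2c level in each mouse (RMA level, log2) by its brighter probe set on the left and its dimmer one on the right, with digits for the replicate and bars for mean ± SD of 5 mice. The brighter set gives 11.69 in both groups, while on the dimmer set control replicates 4 and 5, at 7.05 and 7.27, lie below the 8 other mice.

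**Figure D3:**
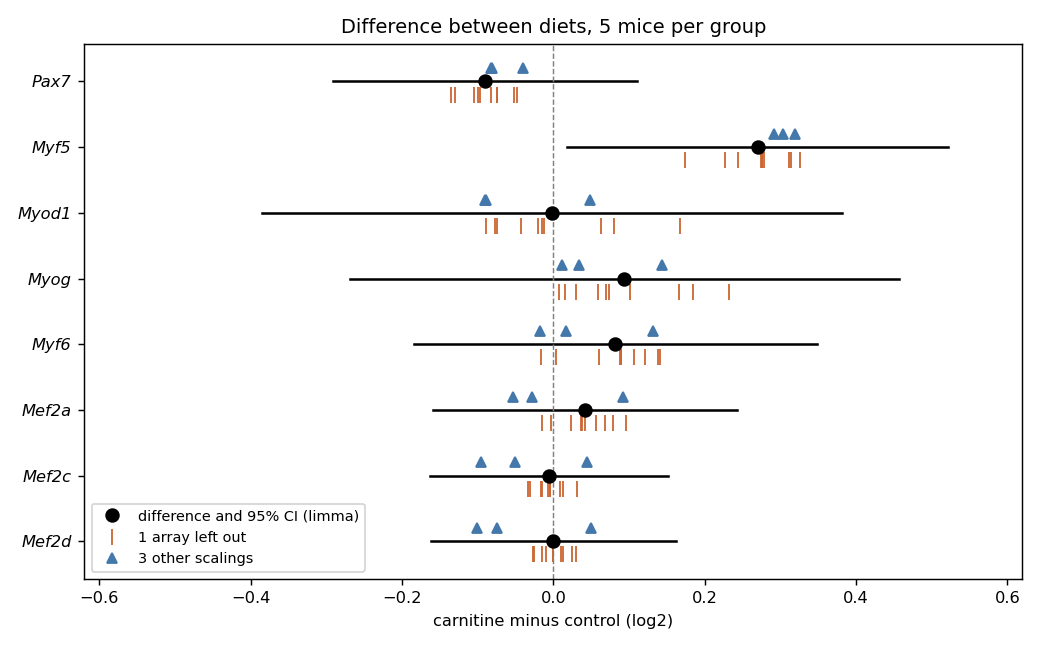
Difference between the diets for each regulator (carnitine minus control, log2), with its 95% confidence interval from limma as a black line, the values with 1 array left out as orange ticks and those after 3 other scalings as blue triangles. The interval of Myf5 alone lies above 0, and the ticks of Myf6, Myod1, Mef2a, Mef2c and Mef2d fall on both sides of 0.

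Pairs of regulators were compared mouse by mouse, after subtraction of each group's mean, in 7 pairs chosen for their biology. No pair passed an adjusted p of 0.05 (exact two-sided permutation within groups, 10 mice, Benjamini-Hochberg over 7 pairs). The closest pair was Mef2c and Mef2d, with r = 0.58 (exact permutation p = 0.186, adjusted 0.648) and Spearman rho = 0.68 (exact permutation p = 0.0879, adjusted 0.482), and r was 0.46 without control replicates 2 and 5. The 2 mice left out for each pair are those farthest from the median of the gene named first, before the group means were subtracted. Mef2a and Mef2c gave r = 0.46 (exact permutation p = 0.278, adjusted 0.648) and rho = 0.37 (p = 0.377, adjusted 0.747). Without control replicate 1 and carnitine replicate 5 that r was 0.93. Mef2a and Mef2d gave r = 0.03 (exact permutation p = 0.945, adjusted 0.945) and rho = 0.24 (p = 0.560, adjusted 0.747), with r = 0.70 without the same mice. The neighbours Myf5 and Myf6 gave r = 0.16 (exact permutation p = 0.714, adjusted 0.833) and rho = 0.17 (p = 0.658, adjusted 0.747), and r = -0.37 without control replicate 5 and carnitine replicate 5. Pax7 and Myf5, both expressed by satellite cells, gave r = -0.43 (exact permutation p = 0.244, adjusted 0.648) and rho = -0.53 (p = 0.138, adjusted 0.482), with r = -0.78 without control replicate 5 and carnitine replicate 2 but -0.01 without control replicate 5 alone. Myod1 and Myog gave r = -0.23 (exact permutation p = 0.602, adjusted 0.833) and rho = -0.30 (p = 0.479, adjusted 0.747), and Myod1 and Myf5 gave r = -0.30 (exact permutation p = 0.544, adjusted 0.833) and rho = -0.13 (p = 0.747, adjusted 0.747). Without control replicates 3 and 4 these r values were 0.46 and -0.47.

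The genes whose levels followed each regulator most closely over the 10 mice, again after subtraction of the group means and among 10317 brighter genes, are given as a description without a test. The highest of this many coefficients over 10 arrays is large by selection alone. Myod1 was followed by Ctnnbip1, an inhibitor of beta-catenin (r = 0.98), and by Zfp746 and Abcg4 (0.93 and 0.92). Myog was followed by Lypd5 (0.97), Rufy4 (0.96) and the elastin gene Eln (0.95), and Pax7 by Tedc2 (0.96), the tetraspanin gene Cd82 (0.94) and the defensin gene Defa24 (0.91). Mef2c was followed by Pon3 (0.97), Gpatch11 (0.96) and the zinc carrier gene Slc30a9 (0.95), and Mef2d by Stradb, the sodium-calcium exchanger gene Slc8a1 and Cmtm4 (all 0.98). Mef2a was followed by the replication gene Orc5 (0.96), the tRNA ligase gene Iars (0.95) and Ssr3 (0.95), and Myf6 by Ap1g1 (0.95), Lclat1 (0.93) and Srp72 (0.93). For Myf5 they were Tmco6 (0.97), Tm7sf3 (0.95) and the mitochondrial ribosomal gene Mrps10 (0.94), whose coefficients were 0.93, 0.86 and 0.83 without control replicate 5. No regulator was among the 3 genes closest to another.

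The genes whose products act with or against the myogenic factors showed no called change in transcript level. Of 12 measured partners, 9 had a positive difference, 3 a negative one and 0 an unadjusted p below 0.05, with a median of 0.07. Over all genes the median was -0.01. Among genes above the receptor background, where all 12 partners lay, it was 0.04, and 62.3% of those genes were positive. The E protein genes Tcf12 and Tcf3, dimer partners of the myogenic factors, differed by 0.16 (SE 0.11) and -0.07 (SE 0.098), and Carm1, an arginine methyltransferase and coactivator, by 0.19 (SE 0.11). Of the 12, 5 were positive after cyclic loess and 5 without control replicate 5. Of 17 inhibitors, 11 were positive, 6 negative and 0 had an unadjusted p below 0.05 (median 0.04). The Id genes encode helix-loop-helix proteins that capture E proteins, and they differed by 0.06 (Id1, SE 0.15), 0.19 (Id2, SE 0.12) and 0.15 (Id3, SE 0.11). Bhlhe41, a repressor of Myod1 activity, differed by 0.28 (SE 0.15, limma unadjusted p 0.0871).

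The regulators of MEF2 had differences in both directions. Of 18 measured genes, 9 were positive, 8 negative and 0 had an unadjusted p below 0.05 (median 0.005), and 14 were positive after median centring but 4 after cyclic loess. Among genes above the receptor background, where 17 of the 18 lay, 62.3% were positive, with a median of 0.04. Of the class IIa histone deacetylase genes, whose products hold MEF2 silent, those set by name differed by -0.05 (Hdac4, SE 0.11), 0.04 (Hdac5, SE 0.11) and -0.02 (Hdac9, SE 0.11). Camk2g, a calcium-activated kinase gene, averaged 10.04 ± 0.19 for the controls and 10.25 ± 0.082 for the carnitine mice (SD, n = 5), a difference of 0.20 (SE 0.096, limma unadjusted p 0.0536). Mamstr, a MEF2 coactivator gene, differed by 0.21 (SE 0.14), and Camk4, a dim gene at a mean of 5.46, by -0.17 (SE 0.13).

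Targets of both families had differences in both directions, from -0.20 to 0.43 for 19 targets of the myogenic factors and from -0.34 to 0.25 for 20 of MEF2. Over all genes 3.14% were higher at an unadjusted p below 0.05. Of the 13016 genes above the receptor background, 599 were higher by that rule and 62.3% had a positive difference. Of the 19 myogenic factor targets, 12 were positive and 7 negative, and 1 was higher by that rule. It was Mylpf, the fast regulatory light chain gene (12.46 ± 0.11 and 12.63 ± 0.042, SD, n = 5, difference 0.17, SE 0.071, limma adjusted p 0.71). Cdkn1c, a cell cycle inhibitor gene of differentiating myoblasts, differed by 0.28 (SE 0.16), and the embryonic actin gene Actc1 by 0.43 (SE 0.34). The embryonic and neonatal myosin genes Myh3 and Myh8, signs of regenerating fibres, differed by -0.10 (SE 0.16) and 0.04 (SE 0.14). Myh3 was dim, with a mean of 5.795 beside the receptor 95th percentile of 5.78. Of 20 MEF2 targets, 11 were positive and 9 negative, and 2 were higher at an unadjusted p below 0.05. These were Myoz1, which encodes calsarcin-2 of the fast fibre Z-disc (difference 0.22, SE 0.080), and Slc2a4, which encodes the insulin-responsive glucose transporter GLUT4 (10.72 ± 0.11 and 10.91 ± 0.11, SD, n = 5, difference 0.19, SE 0.083), both with a limma adjusted p of 0.71. Pgam2, the muscle phosphoglycerate mutase gene, differed by 0.15 (SE 0.084). After cyclic loess 6 of the myogenic factor targets and 6 of the MEF2 targets were positive, and the differences of Mylpf, Myoz1 and Slc2a4 were 0.09, 0.14 and 0.09.

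Genes of satellite cells and of denervated fibres were counted beside Pax7, Myf5 and Myog. Of 18 satellite cell markers, 13 were positive and 4 negative, with a median of 0.04. Over all genes 47.5% were positive. Among genes above the receptor background, where 17 of the 18 lay, 62.3% were positive, with a median of 0.04. Of the 18 markers, 9 were positive after cyclic loess and 16 after median centring. The list includes Des, at a mean of 12.63, which is also counted in both lists of targets. The mean level over the list ran from 7.23 to 7.31 in control and from 7.27 to 7.37 in carnitine mice. By an unadjusted p below 0.05, 1 of the 18 was higher, against 3.14% of all genes. It was Megf10, which encodes a surface receptor of satellite cells (5.97 ± 0.12 and 6.23 ± 0.20, SD, n = 5, difference 0.25, SE 0.11, limma adjusted p 0.71). Its mean of 6.10 lay below the median of 6.14 over all genes. Cxcr4, a chemokine receptor gene, differed by 0.19 (SE 0.091), Cd34, also a gene of vessels and fibroblast-like cells, by 0.20 (SE 0.13), and Pax3, the paralogue of Pax7, by -0.07 (SE 0.13). Of 15 denervation genes, 6 were positive and 9 negative, and 1 was lower at an unadjusted p below 0.05, against 3.83% of all genes. This was Chrng, the fetal acetylcholine receptor subunit gene that Myog is known to drive. Chrng was at 5.88, 5.87, 5.93, 6.31 and 6.61 in control replicates 1 to 5 and at 5.52, 5.72, 6.09, 5.84 and 5.31 in carnitine replicates 1 to 5. Its means were 6.12 ± 0.33 and 5.70 ± 0.30 (SD, n = 5), a difference of -0.42 (SE 0.17, limma adjusted p 0.71) and of opposite sign to that of Myog. Without control replicate 5, the array that stood apart, the Chrng difference was -0.30. The mean of Chrng, 5.91, was close to the receptor 95th percentile of 5.78. Control replicates 4 and 5, the controls with the highest Myog, had the highest Chrng of the 10 mice, and carnitine replicate 5, with the lowest Myog of its group, had the lowest. Control replicates 1, 2 and 3 went the other way, with the lowest Myog of the 10 mice (7.07, 7.16 and 7.10). Their Chrng lay above that of carnitine replicates 1, 2 and 4, whose Myog was 7.48, 7.59 and 7.65. The part of Myog in the Chrng levels was not tested. Chrna1, the adult and fetal receptor subunit gene, differed by 0.07 (SE 0.10), Chrne by 0.19 (SE 0.13) and Runx1, a factor induced by denervation, by 0.13 (SE 0.088).

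**Figure D4:**
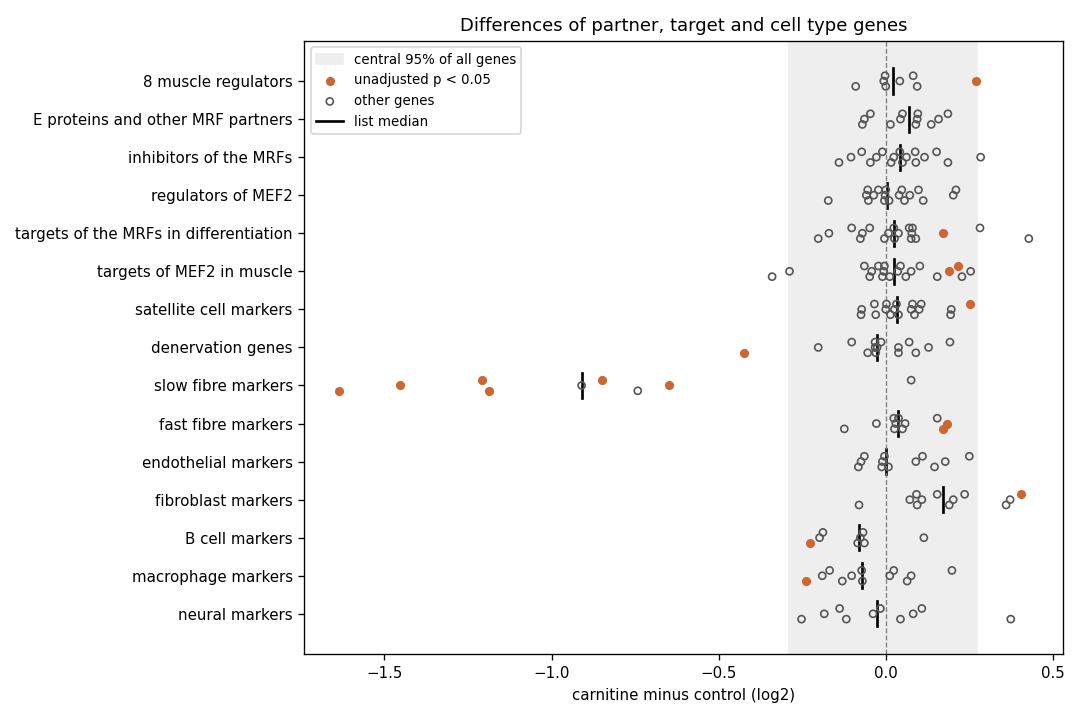
Difference of each gene (carnitine minus control, log2) in the 8 regulators and in 14 lists of partners, inhibitors, targets and cell type markers, with filled points for an unadjusted p below 0.05 in limma, a bar for the list median and a grey band for the central 95% of all genes (-0.29 to 0.27). The regulators lie within the band, and the slow fibre markers, with a median of -0.91, are the list that lies mostly outside it.

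Fibre type and other cell types were set beside the regulators. Of 9 slow fibre markers, 8 were negative and 6 of these had an unadjusted p below 0.05, with a median of -0.91, against 3.83% of all genes lower by that rule and 52.0% with a negative difference. The fast markers had a median of 0.04 with 9 of 11 positive, and 2 were higher at an unadjusted p below 0.05, against 3.14% of all genes. All 11 lay above the receptor background, where 62.3% of genes were positive, with a median of 0.04. The direction of the fast markers turned after cyclic loess, with 3 of 11 positive and a median of -0.02. The part of the slow and fast fibre markers in the values of Myod1 and Myog was not tested. Slow myosin Myh7 was at 9.28, 7.93, 10.73, 10.94 and 6.36 in carnitine replicates 1 to 5 and at 10.20 to 11.29 in the controls. Carnitine replicate 5, with the lowest Myh7 of the 10 mice, had the lowest Myog and the highest Myod1 of the carnitine mice, and carnitine replicate 3, with Myh7 at 10.73, had the lowest Myod1. Other mice did not follow this order. Carnitine replicate 2 had Myh7 at 7.93 and a Myog of 7.59, near the middle of its group, and carnitine replicate 4, with Myh7 at 10.94, had a mid-group Myod1 of 8.14. Control replicate 1, with the highest Myh7 at 11.29, had the lowest Myog of the 10 mice, and control replicate 3, with Myh7 at 10.75, had the highest Myod1.

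Endothelial cells and B cells also express Mef2c. The mean level over 12 endothelial markers ran from 7.48 to 8.13 in control and from 7.77 to 8.17 in carnitine mice, with 6 positive and 6 negative, and control replicate 5 was the lowest at 7.48. Erg, an endothelial transcription factor gene, differed by 0.25 (SE 0.13). Of 8 B cell markers, 1 was positive and 7 negative, against 52.0% negative over all genes. By an unadjusted p below 0.05, 1 was lower, against 3.83% of all genes. Only 2 of the 8 lay above the receptor background on average, and Cd79a, at a mean of 5.35 and a difference of -0.23, was not 1 of them. The part of these 2 cell types in the Mef2c levels was not tested. Of 12 fibroblast markers, 11 were positive (median 0.17), and 10 were positive after cyclic loess. All 12 lay above the receptor background, where 62.3% of genes were positive. By unadjusted p below 0.05, 1 of the 12 was higher, against 3.14% of all genes. Postn, the periostin gene, lay below the median level of all genes and differed by 0.40 (SE 0.18). Of 12 macrophage markers, 5 were positive and 7 negative, with Cd163 at -0.24 (SE 0.11), and of 10 neural markers, 4 were positive and 6 negative, with Sox10 at -0.25 (SE 0.12). Of the macrophage markers 1 was lower at an unadjusted p below 0.05, against 3.83% of all genes, and of the neural markers 0. Of the marker genes 0 passed the adjusted threshold in limma.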

How the data were processed

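Total RNA from gastrocnemius muscle was hybridised to Affymetrix Mouse Gene 2.0 ST arrays, 1 per mouse. The deposited values are log2 values with 2 decimals for 34390 probe sets, made by the authors with RMA in Affymetrix Expression Console, per the submitters' processing notes. Its version, the genome build and scan dates are not given here, so batches could not be examined. RMA hides differences in total RNA and compresses those of dim genes. Probe sets were named from the platform annotation: 23521 have 1 symbol and were used, 1814 have several and 9055 are not listed in it. Of each gene's probe sets the one with the highest mean was kept, leaving 22180 genes.

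The groups were compared with limma 3.58.1 under R 4.3.3 (a linear model per gene and moderated variances with a mean-variance trend, two-sided, Benjamini-Hochberg over all genes). No gene was removed for low signal. Single values were tested by exact permutation over 252 assignments. The study kept 5 mice per cage, as many as there are arrays per diet, and which array mice shared a cage is not known here. An effect of cage may therefore be mixed with that of diet and could not be examined. The p-values rest on the spread between these mice and take the mice as independent. The number of arrays limits the precision, and the median SE of a difference was 0.11.

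The 8 regulators and the 14 lists (193 of 204 entries measured) were chosen with earlier results of these data known. Besides the regulators, the text names up to 3 genes per list with the smallest p, 18 genes set by name whatever their result, and the 3 genes most like each regulator. Replicate numbers occur in both groups, but deviations of same-numbered mice correlated from -0.13 to 0.24, so the numbers were not taken as pairs. Alternatives were a replicate block, filters, variance models, array weights, scalings, probe set choices and the omission of each array. Promoter sequences are those of RefSeq, matched for 6 of the 8 genes.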

Additional observations from a re-analysis of the deposited data

Results flagged for a closer look

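In groups of 5 mice, a mouse was singled out when its gap to the nearest other mouse was more than 0.71 of the group's range, which chance does in about 1 of 20 groups. Of 16 groups of the 8 regulators 3 met this, against 0.8 expected. Myf5 was at 5.84 in control replicate 5, below 6.25 to 6.40 in the other controls. Myf6 was at 10.88 in carnitine replicate 5, above 10.41 to 10.54 in the others. Myod1 was at 7.76 in carnitine replicate 3, below 8.13 to 8.25 in the others.

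Among the other named genes, control replicate 5 was low in Hdac5 (8.11 against 8.58 to 8.71) and high in Sox10 (6.57 against 5.98 to 6.10). Carnitine replicate 5 was high in Bhlhe41 (9.10 against 8.69 to 8.77). Carnitine replicate 3 was high in Id3 (6.72 against 6.48 to 6.54), carnitine replicate 1 was low in Chrna1 (7.10 against 7.40 to 7.50), control replicate 3 was high in Chrne (8.31 against 7.65 to 7.84) and carnitine replicate 2 was high in Myh4 (13.71 against 13.64 to 13.66). Over all 92 groups checked 10 met the rule, against 4.6 expected.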

How the results depend on the processing

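No regulator passed an adjusted p of 0.05 in limma under any alternative, the smallest being 0.436 for Myf5 without control replicate 2. Differences with the opposite sign to the deposited scaling were -0.018 for Myf6 after cyclic loess, -0.053 and -0.028 for Mef2a after cyclic loess and quantile normalization, 0.039 and 0.048 for Myod1 with array weights and median centring, and 0.044, 0.126 and 0.258 for Mef2c after median centring, with the mean of its probe sets and with its other probe set. The cause was not tested. Leaving out 1 array gave 0.174 to 0.327 for Myf5, -0.017 to 0.141 for Myf6, -0.0895 to 0.168 for Myod1, 0.0075 to 0.233 for Myog, -0.135 to -0.0475 for Pax7, -0.0145 to 0.0955 for Mef2a, -0.034 to 0.031 for Mef2c and -0.0275 to 0.030 for Mef2d. The count of regulators with an unadjusted p below 0.05 was 0 with array weights and 0 or 1 over the omissions, and it was 1 under every other alternative. With the replicate block the difference of Myf5 was 0.27 with an unadjusted p of 0.0499, and the block changed no call. Same-numbered mice correlated best with each other in 2 of 5 pairs. Over all genes the counts at an unadjusted p below 0.05 were 696 higher and 850 lower, with 887 and 533 after median centring, 571 and 162 among genes above the median level and 599 and 251 among genes above the receptor background, where fewer genes are tested. Over the omissions they were 445 to 1280 higher and 648 to 1280 lower, with 1280 of each without control replicate 2 and 445 higher without carnitine replicate 2. The sign of no pair correlation turned when group means were kept or arrays were centred on their median, and the Mef2c and Mef2d coefficient was then 0.58 and 0.85 (adjusted exact permutation p 0.652 and 0.145).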

Other observations

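The spread between mice, looked at after the values had been seen, was larger in control than in carnitine muscle for 7 of the 8 regulators, Pax7 being the other. The SD ratio of control over carnitine was 2.45 for Myog, 2.40 for Myod1 and 2.33 for Mef2c, with a median of 1.56 over the 8. Over all genes, 75.0% had the larger SD in control and the median ratio was 1.46, and 18.6% of genes had a ratio at least that of Myog. Without control replicate 5, 6 of the 8 regulators and 60.9% of all genes had the larger SD in control.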
